A study of Mus musculus with 6 samples.

Results

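Retinoic acid is made from vitamin A inside cells and switches genes on through nuclear receptors, and 9 genes of this system were followed here in mouse breast tumours. They were the retinoic acid receptor genes Rara, Rarb and Rarg, the synthesis genes Aldh1a1 and Aldh1a3, the binding protein genes Crabp1 and Crabp2, the uptake gene Stra6 and the gene Dhrs3, whose product turns retinaldehyde back into retinol. All probes annotated to these symbols were taken, which gave 17 of the 45279 probes on the array, for 9 of 19057 named genes. The probes were taken by gene name, without a threshold on any measured value, and the gene list was drawn up with earlier results of these data known.

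The series holds 3 knockout tumours (Cyp27b1 flox/flox;Cre+) and 3 control tumours (Cyp27b1 flox/flox;Cre-) from mice on the FVB background. Cyp27b1 encodes the hydroxylase that turns the circulating form of vitamin D into its active hormone, and the study asked what its loss in the mammary epithelium does to breast cancer. Both groups carried the floxed alleles and Cre was present only in the knockout tumours, so an effect of Cre cannot be told apart from the loss of the gene. The labels used here name neither the promoter that drives Cre nor the age of the mice. They do not tie tumours to animals, so the p-values describe the spread among 6 samples, some of which may be technical.

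Retinol enters cells through the receptor STRA6 in some tissues, is oxidised to retinaldehyde and then, by ALDH1A enzymes, to retinoic acid. CRABP2 carries retinoic acid to its receptors in the nucleus, while CRABP1 binds it in the cytoplasm, and CYP26 enzymes break it down. The receptors bind DNA as pairs with a retinoid X receptor, a partner that they share with the vitamin D receptor. In the mammary gland retinoic acid is known as a signal for epithelial differentiation, and loss of Rarb expression is well known in human breast cancer.

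Each tumour was measured on 1 Illumina bead array. The summed signal of an array lay between 1.23e+07 and 1.48e+07 in the knockout tumours and between 1.07e+07 and 1.34e+07 in the control tumours, and between 33.4% and 36.1% of probes were above background (detection p below 0.05). Precision is limited by how few arrays there were. The probe of Cyp27b1 was above background on 0 of 6 arrays, with normalized log2 values of 4.36 ± 0.07 in knockout and 4.34 ± 0.05 in control tumours (SD, n = 3 each), so it checks nothing about the labels. On a second axis of variation, with 18.4% of the variance, knockout tumour 1 (53.5) stood apart from knockout tumours 2 and 3 (-26.2 and -31.5).

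Of the 17 probes, 9 were kept because they were above background on at least 3 of the 6 arrays, and they covered 7 of the 9 genes. No kept probe was called different between the groups: 0 of 9 passed an adjusted p of 0.05 in limma, where 9.20% of all 15885 kept probes did (4.14% higher and 5.06% lower in the knockout tumours). At an unadjusted p below 0.05 there was 1 of the 9, against 24.7% of all kept probes. By gene, at the kept probe with the highest mean, 0 of 7 were called in limma, against 10.1% of 9354 genes, and 0 of 7 had an unadjusted p below 0.05, against 26.5%. The log2 difference, knockout minus control, was below 0 for 6 of the 7 genes, as it was for 45.8% of all genes. The median over the 7 genes was -0.45, which is the value of Rarb, and that over all 9354 genes was 0.05. Crabp2 and Rarg lay near 0 (-0.05 and -0.08), and their signs turned under some alternative settings.

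**Figure D1:**
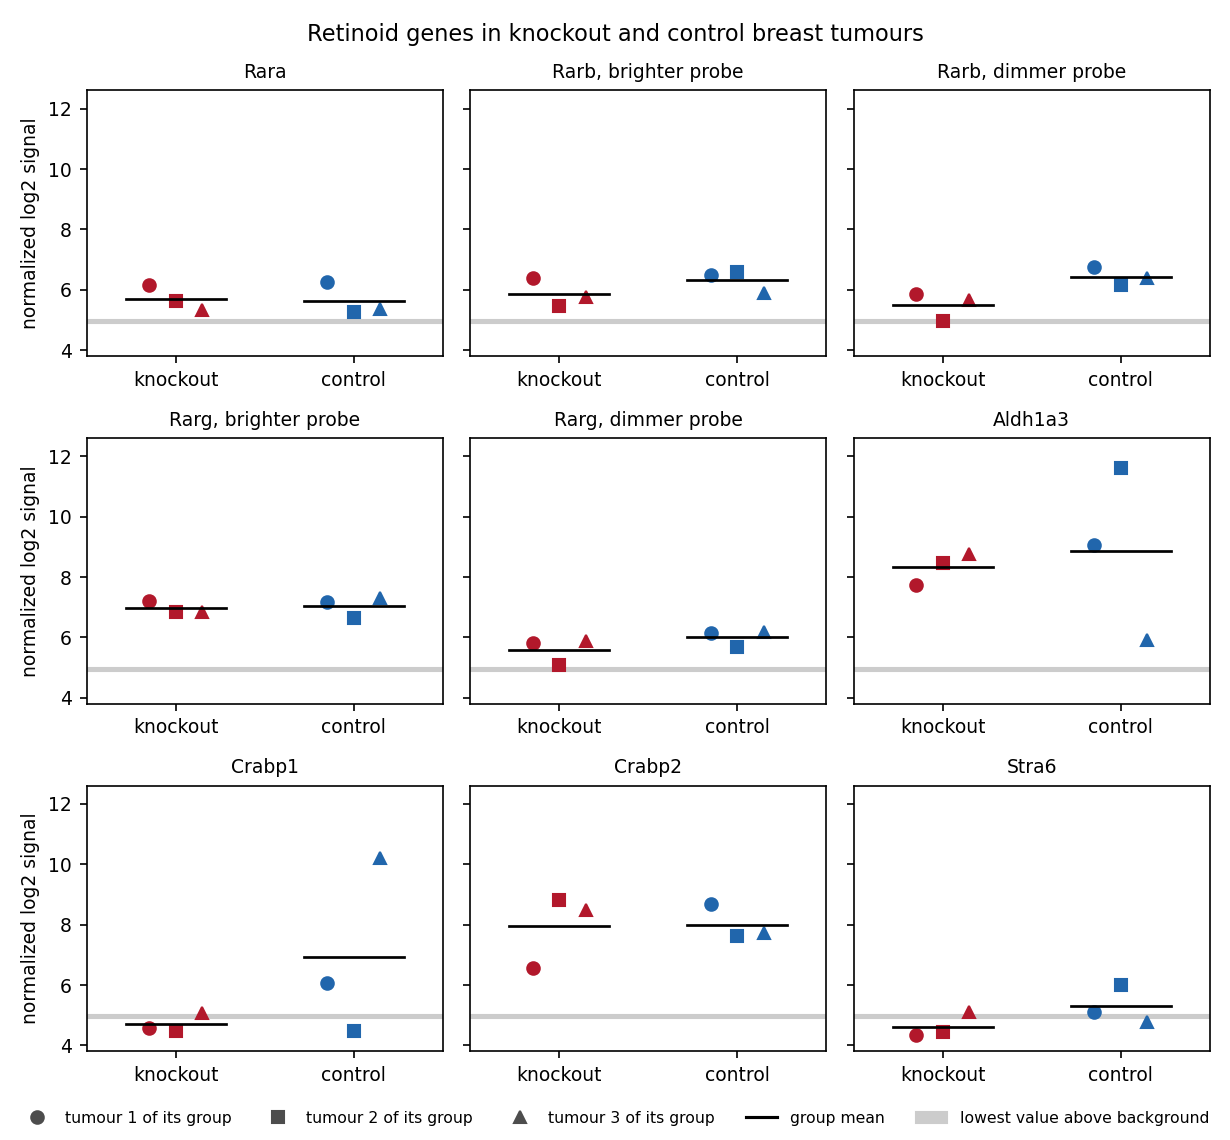
Normalized log2 signal of the 9 kept retinoid probes in each of 3 knockout (red) and 3 control tumours (blue), with the group mean as a black line and the range of the lowest values above background (4.90 to 5.0) as a grey band. The groups overlap for every probe except the dimmer Rarb probe, and Aldh1a3 and Crabp1 are widely spread in the control tumours.

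Among the receptors, Rarb is the one whose own gene is a classical target of retinoic acid, and its promoter is shown because 1 of its probes had the lowest p of the 9 kept. In RefSeq's GRCm38.p6 promoter table, the 100 bases before the start of Rarb (chr14:16575477-16575576, minus strand) hold a direct repeat, with its paired units in capitals and 5 bases between them. Cyp26a1, the gene of a retinoic acid degrading enzyme and the other standard target, has such a repeat in the same stretch of its own promoter (chr19:37697708-37697807, plus strand), there read on the opposite strand.

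Rarb: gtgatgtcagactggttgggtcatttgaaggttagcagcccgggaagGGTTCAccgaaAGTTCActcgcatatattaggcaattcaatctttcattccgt

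Cyp26a1: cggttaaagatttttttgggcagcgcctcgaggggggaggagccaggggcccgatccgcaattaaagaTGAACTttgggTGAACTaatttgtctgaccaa

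The Rarb repeat began 53 bases before the start and the Cyp26a1 repeat 32 bases before it. The search took 3 repeat units, of which the standard one is AGGTCA. The Rarb repeat opens with the second unit, GGTTCA, and closes with the remaining one, which reads AGTTCA when taken on the same strand. Every pairing of the 3 units with 5 free bases between them was searched on both strands over the 300 bases from 250 before to 50 after each start. It found such a repeat in 20 of 32851 promoters (0.0609%). GGTTCA and AGTTCA are the units of the Rarb repeat itself, so its match was fixed by the choice of units. The share is therefore no test of Rarb. Of the 9 genes, 7 had 17 promoters in the table, and Rarb was the 1 gene among them with this repeat. With 2 free bases in place of 5, 0.21% of all promoters and 0 of the 17 held a repeat. Repeats of AGGTCA with itself, which these searches include, stood in 0.00913% of promoters at either spacing, and in 0 of the 17. The plan named only these repeats and the single units, and the other pairings were added to it. A single unit, which is part of every repeat, was found in 35.0% of all promoters and in 5 of the 17. By unit, AGGTCA stood in 16.3%, GGTTCA in 10.4% and AGTTCA in 14.0% of all promoters. These are matches of letters, and binding was not measured.

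Rarb had 3 probes, of which 2 were above background in every tumour. The dimmer of these had log2 values of 5.86, 4.98 and 5.65 in knockout tumours 1, 2 and 3, against 6.76, 6.16 and 6.39 in control tumours 1, 2 and 3. All 3 knockout tumours lay below all 3 control tumours, a separation that 13.8% of kept probes showed in this direction and 30.2% in either. The difference was -0.94 ± 0.28 log2 units (SE, 95% interval -1.60 to -0.28), with an unadjusted p of 0.011 and an adjusted p of 0.082 in limma, so it was not called. Over the alternatives the adjusted p ran from 0.038, with arrays weighted by quality, to 0.24.

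The brighter Rarb probe had log2 values of 6.39, 5.46 and 5.77 in knockout tumours 1, 2 and 3, against 6.50, 6.58 and 5.89 in the control tumours. Here knockout tumour 1 lay inside the range of the control tumours, and the difference was -0.45 ± 0.30 log2 units (SE, 95% interval -1.15 to 0.25, adjusted p = 0.42 in limma). It was -0.24 without knockout tumour 2 and -0.71 without knockout tumour 1. Both probes therefore leaned the same way without a call. The remaining Rarb probe was above background on 0 of 6 arrays. The authors' normalized values, which compress dim probes, gave -0.26 for the dimmer probe and -0.13 for the brighter one.

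Markers of other cell types differed between the same tumours. Of 15 collagen and other fibroblast markers 13 were kept, with 6 lower, 0 higher and 7 not called in the knockout tumours, a median log2 difference of -2.50, and Postn above background on no array. Their summed normalized signal ran from 4568 to 9245 in knockout and from 30783 to 40913 in control tumours. Of 18 markers of luminal epithelium 13 were kept, with 7 higher, 0 lower and 6 not called, and summed signals of 16575 to 33766 in knockout and 6074 to 14577 in control tumours. Among all 9354 genes, 4.47% were called higher and 5.63% lower. In a whole tumour fewer cells of a type and less RNA per cell cannot be told apart. The part of these cell types in the lower Rarb values was not tested.

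Rara, the receptor with the broadest expression in the body, had 1 probe and was dim. Its log2 values were 6.16, 5.63 and 5.34 in knockout tumours 1, 2 and 3, against 6.24, 5.28 and 5.36 in the control tumours. In each group tumour 1 was the highest, and the ranges nearly coincided. The difference was 0.08 ± 0.33 log2 units (SE, 95% interval -0.68 to 0.84, adjusted p = 0.92 in limma), and its sign turned without knockout tumour 1 (-0.14) and without control tumour 2 (-0.092) or 3 (-0.049).

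Rarg, a receptor best known from skin and cartilage, had 2 kept probes out of 3. The brighter one had log2 values of 7.21, 6.85 and 6.85 in knockout tumours 1, 2 and 3, against 7.18, 6.64 and 7.32 in the control tumours. The knockout values all lay within the range of the control values, and the difference was -0.08 ± 0.24 log2 units (SE, 95% interval -0.64 to 0.48, adjusted p = 0.89 in limma). This was the narrowest interval among the 9 kept probes, and the difference was 0.056 without control tumour 3.

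The dimmer Rarg probe had log2 values of 5.80, 5.10 and 5.89 in knockout tumours 1, 2 and 3, against 6.15, 5.70 and 6.18 in the control tumours. The groups overlapped, and the difference was -0.41 ± 0.27 log2 units (SE, 95% interval -1.05 to 0.22, adjusted p = 0.41 in limma), or -0.16 without knockout tumour 2. The remaining Rarg probe was above background on 0 of 6 arrays.

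Of the synthesis enzymes, 1 was measured and 1 was not above background. Aldh1a3, an enzyme that turns retinaldehyde into retinoic acid and a common marker of stem-like cells in human breast cancer, had 1 kept probe out of 3. Its log2 values were 7.74, 8.46 and 8.76 in knockout tumours 1, 2 and 3, against 9.05, 11.60 and 5.91 in control tumours 1, 2 and 3. Control tumour 2 was the highest and control tumour 3 the lowest of all 6, with every knockout tumour between them. The raw signals were 369, 418 and 504 in the knockout tumours, against 655, 3343 and 131 in the control tumours.

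The SD of Aldh1a3 was 0.53 over the knockout tumours and 2.85 over the control tumours. In the control tumours only 8 of the 15885 kept probes had a larger SD, and in the knockout tumours 2699 had. The difference between the groups was -0.54 ± 1.21 log2 units (SE, 95% interval -3.33 to 2.26, adjusted p = 0.84 in limma), an interval that leaves large changes of either sign possible. Without control tumour 2 the difference was 0.84, and without control tumour 3 it was -2.01. Of the other Aldh1a3 probes, 1 was above background in control tumour 1 alone and 1 on no array, so the spread rests on a single probe.

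Aldh1a1, a related enzyme that is high in liver and in some stem-like cells, had 1 probe, and it was above background on 0 of 6 arrays. Its log2 values ran from 4.26 to 4.34 in the knockout tumours and from 4.26 to 4.37 in the control tumours, all below the lowest values above background (4.90 to 5.0). Aldh1a2, the main enzyme of retinoic acid synthesis in the embryo, was above background in control tumour 3 alone. There its probes gave 6.05 and 5.14, against 4.32 to 4.52 over both probes in the knockout tumours and 4.30 to 4.48 in control tumours 1 and 2.

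**Figure D2:**
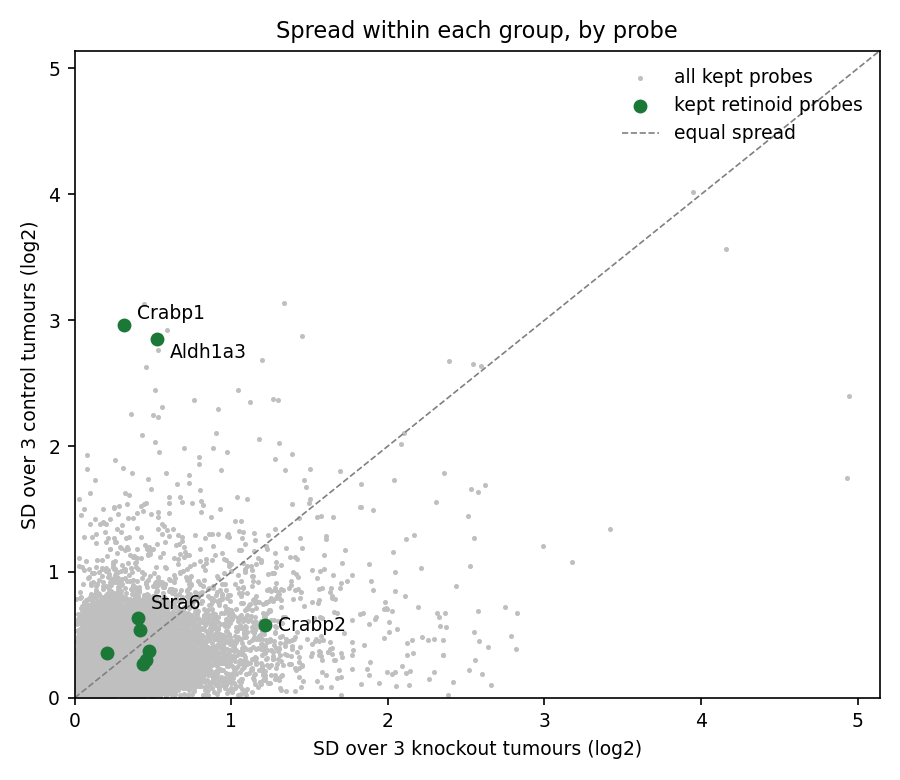
SD over the 3 knockout tumours (x axis, log2 units) against SD over the 3 control tumours (y axis, log2 units) for every kept probe (grey) and the 9 kept retinoid probes (green), with a dashed line at equal spread. Crabp1 (2.96) and Aldh1a3 (2.85) lie near the top of all probes on the control axis, while Crabp2 (1.22) is far out on the knockout axis.

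The binding proteins had their larger spread in different groups, Crabp1 over the control tumours and Crabp2 over the knockout tumours. Crabp1, which holds retinoic acid in the cytoplasm, had 1 probe, with log2 values of 4.57, 4.49 and 5.08 in knockout tumours 1, 2 and 3, against 6.08, 4.47 and 10.21 in control tumours 1, 2 and 3. It was above background in knockout tumour 3 and in control tumours 1 and 3 alone, and control tumour 3 was far above all others with a raw signal of 940, against 101 to 154 in the other control tumours and 103 to 125 in the knockout tumours. The SD was 0.32 over the knockout and 2.96 over the control tumours, and only 4 of 15885 kept probes had a larger SD over the control tumours. The values of knockout tumours 1 and 2 are set by background, so the small knockout SD is no measure of their spread.

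For Crabp1 the group means were 4.72 ± 0.32 in knockout and 6.92 ± 2.96 in control tumours (SD, n = 3 each). The difference of -2.21 ± 1.24 log2 units (SE, 95% interval -5.07 to 0.66, adjusted p = 0.33 in limma) was the largest among the 9 kept probes and was not called. Its size is uncertain, since knockout tumours 1 and 2 and control tumour 2 were not above background. Without control tumour 3 the difference was -0.56 and without control tumour 2 it was -3.43, and the authors' normalized values gave -1.03. Control tumour 2, which was the highest for Aldh1a3, was not above background for Crabp1, while control tumour 3 was the highest for Crabp1 and the lowest for Aldh1a3.

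Crabp2, which hands retinoic acid to the receptors, was well above background in all 6 tumours. Its log2 values were 6.56, 8.82 and 8.47 in knockout tumours 1, 2 and 3, against 8.67, 7.61 and 7.72 in the control tumours. Knockout tumour 1 was the lowest and knockout tumour 2 the highest of all tumours, and the control tumours lay between them. The SD of 1.22 over the knockout tumours was exceeded by 321 of 15885 kept probes. Its SD over the control tumours, 0.58, was exceeded by 1594, so Crabp2 was among the more variable probes in both groups.

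The group means of Crabp2 were 7.95 ± 1.22 in knockout and 8.0 ± 0.58 in control tumours (SD, n = 3 each), a difference of -0.05 ± 0.58 log2 units (SE, 95% interval -1.40 to 1.3, adjusted p = 0.98 in limma). Knockout tumour 1 also stood apart on the second axis of variation given above. Without that tumour the difference was 0.65 (adjusted p = 0.31 in limma), and without control tumour 1 it was 0.29. The value was also above 0 with the authors' normalized values (0.045). The part of what sets knockout tumour 1 apart in its low Crabp2 was not tested.

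Stra6, the membrane receptor that takes up retinol from its carrier in blood, had 1 kept probe out of 2 and was near background. The kept probe gave log2 values of 4.34, 4.45 and 5.09 in knockout tumours 1, 2 and 3, against 5.10, 6.01 and 4.79 in the control tumours. It was above background in knockout tumour 3 and in control tumours 1 and 2 alone, and the values at or under the floor have no order. The highest was control tumour 2, also the highest for Aldh1a3. The difference was -0.67 ± 0.36 log2 units (SE, 95% interval -1.49 to 0.15, adjusted p = 0.30 in limma), and the authors' normalized values gave -0.17. It was -0.31 without control tumour 2. The other Stra6 probe was above background in control tumour 1 alone.

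Dhrs3, a reductase that lowers retinoic acid production by returning retinaldehyde to retinol, had 2 probes, and neither was kept. The brighter was above background in knockout tumour 1 (5.01) and control tumour 3 (5.02) alone, and the other on 0 of 6 arrays. No difference of Dhrs3 was detectable at these signals.

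**Figure D3:**
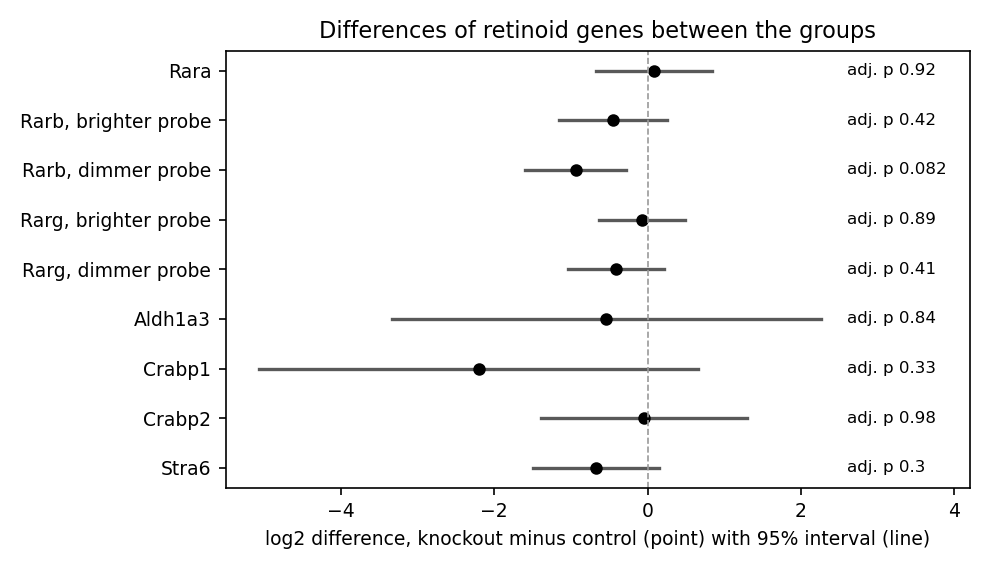
Log2 difference, knockout minus control, of the 9 kept retinoid probes (points) with 95% intervals from limma (lines) and adjusted p-values at the right. The interval leaves out 0 for the dimmer Rarb probe alone (-1.60 to -0.28), whose adjusted p was 0.082, and is widest for Crabp1 and Aldh1a3.

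The other genes of the pathway were taken as 5 lists of 88 genes, 79 of them with a probe and 42 with a kept probe. Of the 42, 2 were higher and 5 were lower in the knockout tumours, against 4.47% higher and 5.63% lower among all 9354 genes. The median log2 difference of the 42 was 0.02, beside 0.05 over all genes. The groups did not overlap for 17 of the 42, against 32.1% of all genes.

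Breakdown of retinoic acid left little signal. Cyp26a1, whose promoter is printed above, was above background in 1 tumour, control tumour 2, at 4.98, and its brighter probe lay between 4.33 and 4.58 in the knockout tumours. Cyp26b1 was above background on no array. Cyp1b1, listed here although it oxidises retinol, was the 1 kept gene of 4 with a probe and gave -0.05 (adjusted p = 0.95 in limma). No Cyp26 gene was kept, so this value gives no reading of breakdown by CYP26 enzymes. Control tumour 2 also had the highest values of Aldh1a3, Stra6 and the brighter Rarb probe (6.58), but it was the lowest control tumour on the dimmer Rarb probe (6.16) and the lowest of all 6 tumours for Rara and the brighter Rarg probe.

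Among 24 retinol and retinaldehyde enzymes with a probe, 8 were kept and 0 were called (median log2 difference 0.11), against 10.1% of all 9354 genes. At an unadjusted p below 0.05 there were 0 of the 8, against 26.5% of all genes. The lowest p was that of Rdh11, a retinaldehyde reductase, which gave 9.98, 10.31 and 9.70 in knockout tumours 1, 2 and 3, against 9.55, 9.47 and 9.47 in the control tumours. Its groups did not overlap, as for 32.1% of all genes, and its difference was 0.49 ± 0.21 log2 units (SE, adjusted p = 0.21 in limma). Rdh7 gave -0.36 (adjusted p = 0.33). Adh1, an alcohol dehydrogenase that also oxidises retinol, was not kept. Its brighter probe was above background in control tumours 1 and 3 (5.10 and 5.94) and in 0 of the 3 knockout tumours.

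Of 9 genes with a probe for uptake, storage and binding, 2 were kept and 0 called, against 10.1% of all 9354 genes. At an unadjusted p below 0.05 there were 0 of the 2, against 26.5% of all genes, and 2 genes are too few to compare with these shares. Fabp5, which can carry retinoic acid to another receptor, gave 0.45 (adjusted p = 0.54), and Ttr, part of the retinol carrier in blood, gave 0.14 (adjusted p = 0.73), both in limma. The other 7, among them Lrat and Rbp4, were above background on 0 of 6 arrays.

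Receptor partners and cofactors held the 2 genes that rose. Of 13 kept, 2 rose, 0 fell and 11 were not called (median log2 difference 0.27), beside 4.47% higher and 5.63% lower over all genes. Tbl1xr1, a subunit of the corepressor complex that silences unliganded receptors, had log2 values of 9.16, 8.68 and 8.93 in knockout tumours 1, 2 and 3, against 7.83, 7.56 and 7.67 in the control tumours. All knockout tumours were above all control tumours, and the rise was 1.23 ± 0.21 log2 units (SE, adjusted p = 0.012 in limma). Its other kept probe gave 0.70 (adjusted p = 0.080) and was not called, and the authors' normalized values gave 0.82.

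Ep300, an acetyltransferase recruited by receptors bound to their ligand, had log2 values of 9.45, 9.36 and 9.37 in knockout tumours 1, 2 and 3, against 8.77, 8.53 and 8.64 in the control tumours. The groups did not overlap, and the rise was 0.75 ± 0.18 log2 units (SE, adjusted p = 0.042 in limma). The call was lost when any 1 of the 6 tumours was left out, with adjusted p-values from 0.081 to 0.12, over a range of 0.012 to 0.12 among all alternatives.

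Rxra, the shared partner of the retinoic acid and vitamin D receptors, had log2 values of 5.75, 5.82 and 6.06 in knockout tumours 1, 2 and 3, against 5.15, 5.22 and 5.28 in the control tumours. Its groups did not overlap, as for 32.1% of all genes. The difference of 0.66 ± 0.19 log2 units (SE, adjusted p = 0.067 in limma) was not called, and it was 0.14 with the authors' normalized values. Pml, known as a fusion partner of the human RARA gene in leukaemia, gave -1.05 ± 0.28 log2 units (SE, adjusted p = 0.054 in limma) and was not called either. Both lay near the threshold. Pml was called in 4 of 15 alternatives, with adjusted p-values from 0.029 to 0.16 in limma. Rxra was called in 1 of 15, with arrays weighted by quality, over a range of 0.041 to 0.21.

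Genes known as targets of retinoic acid in other systems gave the 5 falls. Of 18 kept, 0 rose, 5 fell and 13 were not called (median log2 difference -0.60), beside 4.47% higher and 5.63% lower over all genes. Hoxa5, a homeobox gene, had log2 values of 4.36, 4.32 and 4.83 in knockout tumours 1, 2 and 3, against 6.53, 7.42 and 7.11 in the control tumours. It was not above background in any knockout tumour, so it was kept through the 3 control tumours alone. Hoxa5 was at least 4.30-fold lower in the knockout tumours (adjusted p = 0.0036 in limma), a p-value that is not separate support for the fall. The bound takes, in each knockout tumour, the array's lowest value above background or the probe's own value, whichever was larger. Hoxb4, another homeobox gene, had 4.45, 4.64 and 5.40 in knockout tumours 1, 2 and 3, against 7.21, 7.80 and 7.01 in the control tumours.

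The fitted fall of Hoxb4 was -2.51 ± 0.32 log2 units (SE, adjusted p = 0.0052 in limma). It was above background in 1 of 3 knockout tumours, so the values of the other 2 are set by background and the size of the fall is uncertain. Meis2, a homeobox partner of Hox proteins, had 5.24, 4.34 and 4.97 in knockout tumours 1, 2 and 3, against 7.30, 6.29 and 7.34 in the control tumours. Its fitted fall was -2.13 ± 0.36 log2 units (SE, adjusted p = 0.012 in limma). In knockout tumour 2 it lay under that array's lowest value above background (4.92), so the size of this fall is uncertain too. The authors' normalized values gave -0.71 for Hoxa5, -0.77 for Hoxb4 and -0.62 for Meis2, all still called. Meis2 lost its call without control tumour 1 (adjusted p = 0.060) and without the filter on dim probes (0.056), over a range of 0.0060 to 0.060 among all alternatives.

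Rai14, named for its induction by retinoic acid and tied to actin, had log2 values of 8.90, 8.34 and 8.91 in knockout tumours 1, 2 and 3, against 10.00, 10.11 and 10.14 in the control tumours. The groups did not overlap, and the fall was -1.37 ± 0.22 log2 units (SE, adjusted p = 0.011 in limma). 

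The fifth was Cdkn1a, the gene of a cell cycle inhibitor that p53 induces, with log2 values of 11.20, 11.62 and 11.09 in knockout tumours 1, 2 and 3, against 12.29, 12.49 and 12.27 in the control tumours. All knockout tumours were below all control tumours, and the fall was -1.04 ± 0.21 log2 units (SE, adjusted p = 0.024 in limma). Its other 2 probes, both called, gave -1.29 and -1.17. Its call was lost without knockout tumour 3 (adjusted p = 0.069) or without control tumour 1 (0.081), 2 (0.066) or 3 (0.061), over a range of 0.015 to 0.081 among all alternatives. Beside these 5 falls stand the summed fibroblast markers given above (4568 to 9245 in knockout, 30783 to 40913 in control tumours), whose part in them was not tested.

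Among the targets not called, Krt19, a keratin that the luminal marker list also holds, had log2 values of 5.57, 8.72 and 8.19 in knockout tumours 1, 2 and 3, against 5.05, 4.70 and 5.11 in the control tumours (adjusted p = 0.068 in limma). Knockout tumour 1 was the low one of its group, as for Crabp2, and without it the difference of 2.54 became 3.50 (adjusted p = 0.0018, within a range of 0.0018 to 0.24 among all alternatives). The authors' normalized values gave 0.96 (adjusted p = 0.17 in limma). Krt19 in control tumour 2 lay under that array's lowest value above background (4.93), so the size of the difference is uncertain. Ret, a receptor kinase gene, was above background in all control tumours and in 0 of 3 knockout tumours, at least 1.31-fold lower (adjusted p = 0.064 in limma). Like Hoxa5, it was kept through the control tumours alone. Among all alternatives the adjusted p of Ret ran from 0.049 to 0.15 in limma.

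**Figure D4:**
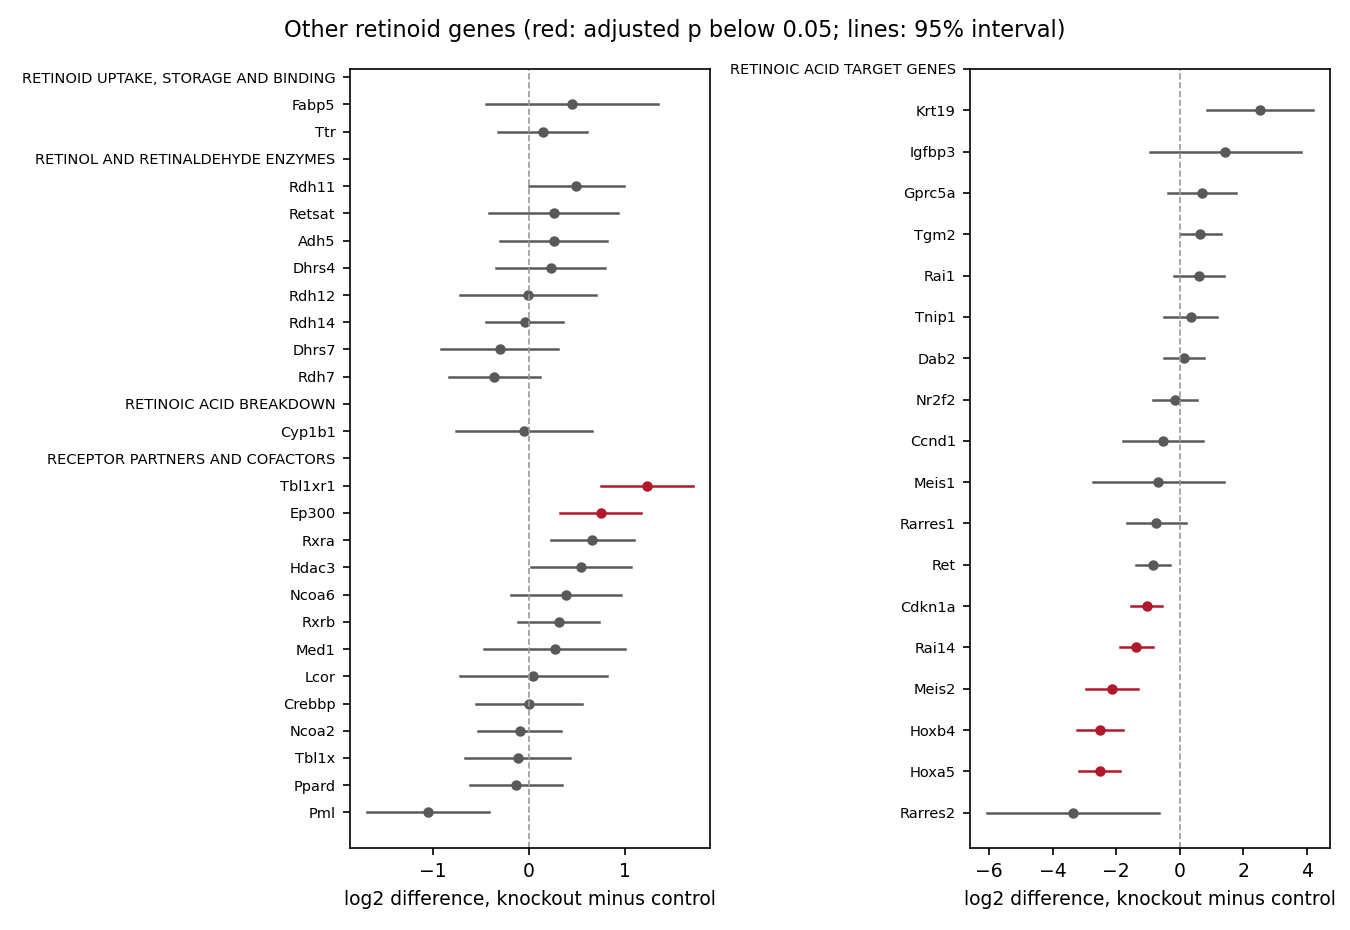
Log2 difference, knockout minus control, of the 42 other kept retinoid genes by list (points) with 95% intervals from limma (lines), with the 7 called genes in red. The 2 called rises are cofactors (Tbl1xr1 at 1.23 and Ep300 at 0.75) and the 5 called falls are target genes, among them Rai14 at -1.37 and Cdkn1a at -1.04. The point of Hoxa5 is the fitted value of a probe above background in 0 of 3 knockout tumours.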

How the data were processed

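The authors deposited linear signal intensity beside detection p-values, by probe and array and not normalized, per the file headers. In 1 detection column 4 broken lines held other content, and their 2 probes were dropped, so 45279 were analysed. A second table deposited by the authors holds normalized log2 values, for which lumi 2.6.0 is named in the submitters' processing notes without its steps. Scale and centring of those values stay unknown (column medians 7.40 to 7.41), while within each array they rank probes as the signals do (Spearman 1).

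Signals were background corrected from the detection p-values, quantile normalized and log2 transformed with an offset of 16 (neqc, limma 3.58.1, R 4.3.3). The 15885 probes above background (detection p below 0.05) on 3 or more of the 6 arrays were kept. Symbols came from the platform annotation, where 34883 probes had 1 symbol, 18 several and 10378 none given here. Of them 34805 matched the GRCm38.p6 gene table and 0 symbols changed. Knockout minus control was tested with lmFit and eBayes, two-sided, Benjamini-Hochberg adjusted over the kept probes. A gene is described by its kept probe of highest mean, and 95% intervals come from the moderated fit. The test was tested on simulated data. Members, lists and tests were chosen with earlier results of these data known. The rule for names took every member, every called gene of the other lists, and the 2 uncalled genes of smallest p per list. Adh1, Aldh1a2, Cyp26a1, Cyp26b1, Lrat and Rbp4 were named after their values were seen, as were the promoters searched, since the rule searched those of called members and none was called. The rule's repeats were of AGGTCA with itself, and the other pairings of units were added. There were 15 alternatives. Over all genes 4.47% were called higher and 5.63% lower. Among 11 marker lists, macrophages had 0 of 4 kept markers called, T and NK cells 0 of 1, B and plasma cells 0 of 2, neutrophils and mast cells 0 of 2, adipocytes 0 of 2, endothelium 1 of 2 (lower), squamous keratinocytes 1 of 2 (lower), skeletal muscle 1 of 4 (lower), and basal cells 2 higher and 3 lower of 10.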

Additional observations from a re-analysis of the deposited data

How the results depend on the processing

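Described by 1 value each, 0 of the 7 member genes were called under the 15 alternatives in which they could be tested. Crabp1 and Stra6 had no value under the stricter filter. The dimmer Rarb probe was called with array weights (-1.12, adjusted p = 0.038) and with the replicate block (-0.94, adjusted p = 0.048), and its adjusted p ran from 0.038 to 0.24. Same-numbered tumours had correlations of their deviations from the group means of 0.23, 0.09 and 0.06, and no label pairs them, so they share only a number. With the replicate block 1381 probes were called in place of 1461, and the other pathway genes called higher were 1 in place of 2, as Ep300 was lost. They were 4 with array weights, and 1 to 2 when a tumour was left out. Those called lower were 3 to 5 when a tumour was left out, and 3 to 7 over all alternatives, with 7 under cyclic loess. The count of called probes was 723 without the filter and 476 to 1564 with a tumour left out, with 476 without control tumour 1, 568 without knockout tumour 2 and 741 without control tumour 3. It has no value with the mean of a gene's probes, which replaces probes by genes. Signs turned for 5 uncalled genes. Crabp2 gave 0.045 with the authors' values, 0.025 without background correction and 0.13 with array weights, Rara -0.14 with array weights and Cyp1b1 0.14. Over left-out tumours Crabp2 ran from -0.48 to 0.65, Rara from -0.14 to 0.39, Rarg from -0.28 to 0.056, Aldh1a3 from -2.01 to 0.84 and Cyp1b1 from -0.24 to 0.20. The cause was not tested. Of the called probes 55.0% were lower in the knockout tumours, and 61.0% with cyclic loess. Dim probes limit Crabp1, Stra6, Dhrs3 and Aldh1a1.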

Other observations

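Control tumour 3, which had the highest Crabp1, also had the highest values of Rarres2, the gene of the secreted attractant chemerin, a gene chosen here after its values were seen. The brightest Rarres2 probe had log2 values of 5.31, 5.01 and 6.04 in knockout tumours 1, 2 and 3, against 7.11, 7.32 and 12.00 in control tumours 1, 2 and 3. The groups did not overlap, as for 32.1% of all genes. The difference of -3.36 ± 1.17 log2 units (SE, n = 3 each) was not called (adjusted p = 0.12 in limma). A second Rarres2 probe, above background in control tumours 1 and 3, had 4.44, 4.50 and 4.46 in the knockout tumours, against 5.26, 4.85 and 9.79 in the control tumours. Both of these probes put control tumour 3 far above the others. The remaining probe did not: it had 5.81, 5.93 and 5.45 in the knockout tumours, against 6.06, 5.71 and 4.66 in the control tumours, with a difference of 0.25 (adjusted p = 0.74 in limma).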
